A study of Mus musculus with 8 samples.

Results

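The mTOR pathway sets the rate of protein synthesis, and 10 genes that encode its kinase, partner proteins, upstream switch and translation effectors were followed in mouse embryonic stem cells with a Mettl6 knockout. The members are Mtor, Rptor, Rictor, Tsc1, Tsc2, Rheb, Akt1s1, Rps6kb1, Larp1 and Deptor, chosen by symbol from the 23818 genes of the deposited table, and all 10 were found. METTL6 methylates serine tRNA to give m3C, and the study asked how its loss affects translation. The knockout cells were J1 strain embryonic stem cells of the METTL6 KO G6 genotype (KO), and the controls were wild type J1 cells (WT). Both genotypes were cultured with LIF in 2i medium and received cycloheximide, which stops elongating ribosomes, for 10 min before lysis. Each genotype gave 2 total RNA libraries and 2 ribosome footprint libraries, 8 in all, which the series describes as biological replicates. Footprints were the RNA that single ribosomes from a sucrose gradient protected from RNase A and RNase T1. KO is 1 clone, so the knockout of Mettl6 and the history of that clone cannot be told apart. The p-values measure the spread between these libraries, and whether each came from its own culture is not given in the sources used here.

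mTOR is a kinase that works in a pair of complexes, mTORC1, built on the scaffold RAPTOR (Rptor), and mTORC2, built on RICTOR (Rictor). The small GTPase RHEB, loaded with GTP, turns mTORC1 on at the lysosome, while the TSC complex of TSC1 and TSC2 drives RHEB into its inactive form. PRAS40 (Akt1s1) and DEPTOR bind mTORC1 as inhibitors. Active mTORC1 phosphorylates the ribosomal protein S6 kinase (Rps6kb1) and LARP1, which binds the 5′ terminal oligopyrimidine (TOP) tract of mRNAs for ribosomal proteins and elongation factors. These data measure RNA and footprints, not protein, phosphorylation or kinase activity.

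Depth was modest and limits the low members. The most frequent low value above 0 in each library was taken as the worth of 1 read. It put the libraries at 1301530 and 1524100 reads in KO total RNA and at 2031520 and 1957670 reads in WT total RNA. Footprint libraries were put at 2437860 and 1835680 reads in KO and at 2960260 and 2124890 reads in WT. Values are CPM, which puts each library on a common total. Rn45s, the ribosomal RNA precursor, took 2.49% to 6.46% of the total RNA libraries and 38.3% to 46.3% of the footprint libraries. Mettl6 total RNA was listed at 2.30 and 0 CPM in KO libraries, against 25.6 and 27.1 CPM in WT libraries. The log2 change, a difference of mean log2(CPM + 1), was -3.91 (SE 0.599, Benjamini-Hochberg adjusted p = 0.000367 by limma-trend), while its footprints stood at 5.33 and 4.36 CPM in KO and at 3.38 and 6.59 CPM in WT. The Mettl6 footprint change was 0.02 (SE 0.393, adjusted p = 0.985) and its efficiency change 3.93 (SE 0.721, adjusted p = 0.0225), so Mettl6 checks the KO label of the total RNA libraries and not that of the footprint libraries. All 10 stem cell markers were present in every group, and their summed total RNA was 5639 to 5994 CPM in KO and 6268 to 6572 CPM in WT. Among them Nanog and Zfp42 fell in total RNA (log2 changes of -0.77 and -0.58) and in footprints (-0.80 and -0.55), and Tfcp2l1 rose in footprints (0.57). In total RNA 20% of these markers fell, beside 7.03% of all genes. In footprints 20% fell and 10% rose, beside 8.28% and 10.7% of all genes. Lower medians of chromosomes 6, 8 and 11 in KO are given below, and their part in these marker values was not tested. The summed fibroblast and feeder list stayed between 8.68 and 23.8 CPM over all 8 libraries, with Dcn, Lum, Col3a1 and Postn at 0 throughout. Primitive endoderm markers summed to 19.7 to 20.7 CPM in KO total RNA and to 5.62 to 11.8 CPM in WT, and germ layer markers to 17.1 to 27.7 CPM in KO and to 35.0 to 37.8 CPM in WT. In footprints the primitive endoderm sums were 13.8 to 13.9 CPM in KO and 12.2 to 13.2 CPM in WT. The germ layer sums were 37.3 to 40.1 CPM in KO and 40.8 to 69.6 CPM in WT footprints. Primitive endoderm markers went both ways. Gata4 footprints were 3.28 and 4.54 CPM in KO and 9.80 and 7.99 CPM in WT. Dab2 footprints were 5.74 and 4.90 CPM in KO and 1.01 and 1.88 CPM in WT. The part of these marker lists in the members' values was not tested. In these bulk libraries fewer cells of a type and less RNA per cell cannot be told apart.

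All 10 members were above the minimum mean of 1 CPM in both kinds of library and entered every test. In total RNA only Rps6kb1 passed an adjusted p of 0.05, and it was lower in KO, beside 13.6% of all 13222 tested genes passing, 6.57% as higher and 7.03% as lower. In footprints Rheb and Larp1 passed, both lower in KO, beside 19% of 11624 genes, 10.7% as higher and 8.28% as lower. For translational efficiency, the footprint change corrected for the RNA change in 1 model of all 8 libraries, no member passed, beside 0.0616% of 11364 genes, 0.044% as higher and 0.0176% as lower. Shares of 1 and 2 of 10 members lie near those of all genes. At an unadjusted p below 0.05 the members' counts were 3 in total RNA, 5 in footprints and 1 in translational efficiency, against 27.9%, 31.1% and 8.91% of all genes. The median change of the members was -0.22 in total RNA against -0.04 over all genes, 0.09 in footprints against -0.05, and 0.09 in translational efficiency against 0.07.

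**Figure D1:**
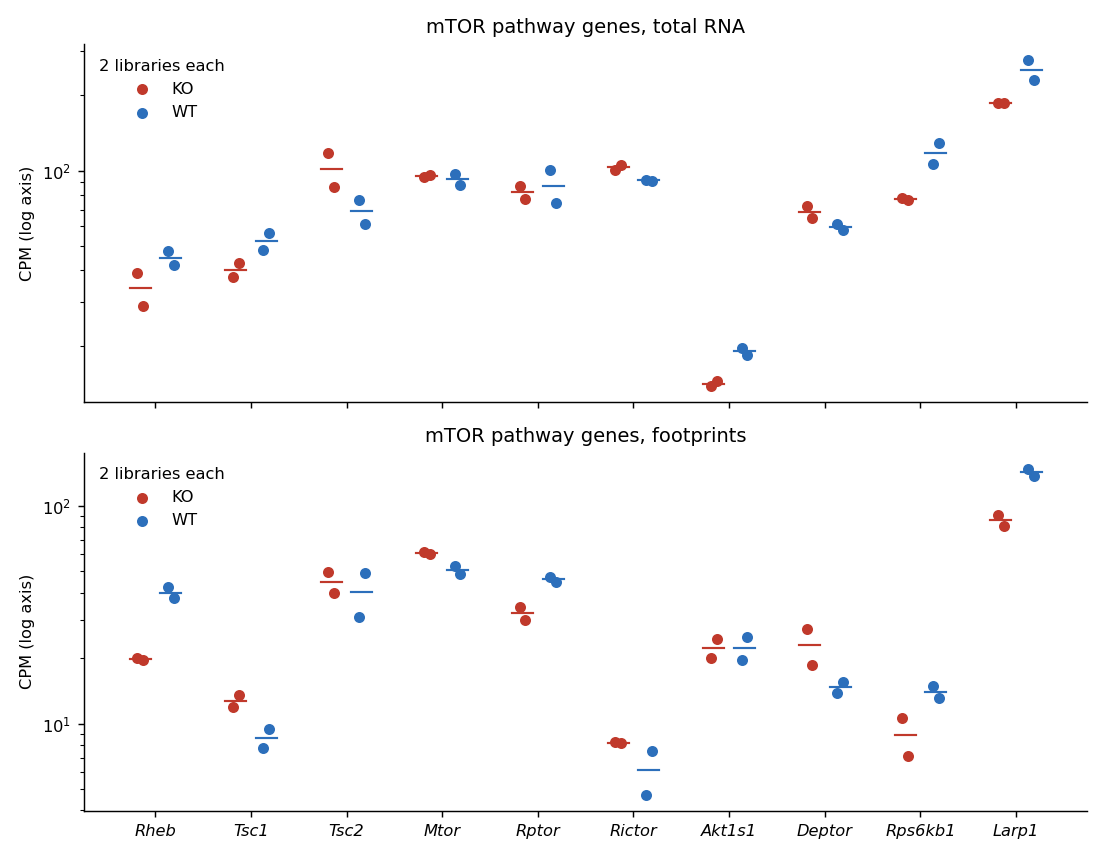
CPM of each member on a log axis in total RNA (top) and footprints (bottom), KO in red left of WT in blue, with 2 libraries per group as points and their mean as a line. Rheb and Larp1 footprints show wide gaps between the groups, while Mtor total RNA and Akt1s1 footprints overlap.

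Rheb, the activating GTPase (chromosome 5, 24802823 to 24842624, minus strand, GRCm38), had the lowest footprint change of the members. Rheb footprints were 20.1 and 19.6 CPM in the KO libraries, against 42.2 and 37.7 CPM in the WT libraries. The KO libraries lay close together and far below both WT ones, with means of 19.8 ± 0.388 CPM in KO and 39.9 ± 3.22 CPM in WT (SD, n = 2 each), a footprint level 2.02-fold lower in KO. On the log2 scale Rheb footprints fell by 0.97 (SE 0.225, limma-trend adjusted p = 0.00169), lower than the change of all but 4.94% of tested genes. Rheb total RNA was 39.2 and 28.9 CPM in KO and 47.7 and 41.9 CPM in WT. The groups did not overlap there either, but the log2 change of -0.40 did not pass the test (SE 0.251, adjusted p = 0.321), nor did the efficiency change of -0.57 (SE 0.335, adjusted p = 0.637). The fall in footprints was lost in 1 case, without WT footprint library 1, where the log2 change was -0.89 (adjusted p = 0.0548). An estimated 49 and 35.9 footprint reads lie behind the KO values and 125 and 80 behind the WT values. Of the 25-base words of the Rheb transcript 3.86% also occur in transcripts of other genes.

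Sequence upstream of the RefSeq start of Rheb is shown because Rheb footprints changed most among the members and because it alone of the 9 members with a RefSeq start (all but Deptor) holds an E-box, CACGTG, in the 250 bases before that start. The GENCODE annotation begins the gene further upstream, so the printed window lies inside the gene coordinates given above, and which start these cells use was not tested. The E-box was found in 6.02% of 32851 starts of all genes. The 100 bases before the start, chr5:24842362-24842461 on the minus strand (RefSeq, GRCm38.p6), follow with the E-box and a GC box (GGGCGG) in capitals. Both strands were searched, and a match is a description of letters, not of a bound site or of an active promoter.
Rheb: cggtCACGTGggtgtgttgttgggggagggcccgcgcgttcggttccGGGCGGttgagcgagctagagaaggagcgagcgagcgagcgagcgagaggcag

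Tsc1 and Tsc2, which together hold RHEB in check, moved apart in total RNA without passing the test. Tsc1 (chromosome 2, 28641228 to 28691167) had 37.6 and 42.6 CPM of total RNA in KO and 48.2 and 56.7 CPM in WT. Its footprints were 11.9 and 13.6 CPM in KO and 7.77 and 9.41 CPM in WT, so KO was below WT in RNA and above it in footprints, with no overlap in either. The efficiency change of Tsc1 was accordingly the highest of the members, at 0.90 (SE 0.379, unadjusted p = 0.0255), and did not pass over all genes (adjusted p = 0.479). It rests on few footprint reads, an estimated 29 and 25 in KO and 23 and 20 in WT. Tsc2 (chromosome 17, 24595816 to 24632630, minus strand), which carries the GTPase-activating domain, had 117.4 and 86.4 CPM of total RNA in KO and 76.5 and 61.3 CPM in WT. Both KO libraries were above both WT ones, with a log2 change of 0.55 (SE 0.201, adjusted p = 0.0801). Tsc2 footprints overlapped, at 49.6 and 39.8 CPM in KO and 30.7 and 49.4 CPM in WT. Exons of Tsc2 share 693 bases with Pkd1 on the opposite strand, and whether counting used strand is not given in the sources used here. Pkd1 total RNA was 54.7 and 48.8 CPM in KO and 34.7 and 36.3 CPM in WT, a difference in the direction of Tsc2 whose part in the Tsc2 value was not tested.

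Levels of members were also set against each other as ratios of CPM within a library. These are descriptions, with no share over all genes to set beside them. The ratio of Tsc2 to Rheb footprints was 2.47 and 2.03 in KO and 0.728 and 1.31 in WT. In total RNA the same ratio was 3.0 and 2.99 in KO and 1.60 and 1.46 in WT, so KO lay above WT in both kinds of library. For Tsc1 to Rheb the footprint ratio was 0.592 and 0.697 in KO and 0.184 and 0.250 in WT, while the ratios of total RNA overlapped. For Tsc1 to Tsc2 the footprint ratio overlapped, at 0.240 and 0.342 in KO and 0.253 and 0.190 in WT. In total RNA it was 0.321 and 0.494 in KO and 0.630 and 0.926 in WT. Footprint ratios of Deptor to Mtor and of Rictor to Mtor also overlapped, while those of Rptor to Mtor were lower in KO without overlap.

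Mtor, the kinase (chromosome 4, 148448611 to 148557683), differed little between genotypes. Its total RNA was 94.5 and 96.5 CPM in KO and 97.5 and 87.9 CPM in WT, with a log2 change of 0.04 (SE 0.173, adjusted p = 0.904). Mtor footprints were 61.5 and 59.9 CPM in KO and 53.0 and 48.5 CPM in WT, a small step up without overlap that did not pass (log2 change 0.26, SE 0.193, adjusted p = 0.388). Rptor, the mTORC1 scaffold (chromosome 11, 119602905 to 119899576), overlapped in total RNA, at 86.8 and 77.4 CPM in KO and 100.4 and 74.1 CPM in WT. Rptor footprints lay lower in both KO libraries, at 34.5 and 30.0 CPM in KO and 47.2 and 44.7 CPM in WT (log2 change -0.50, SE 0.209, adjusted p = 0.0889). They passed when Rn45s was left out of the library totals, with a log2 change of -0.59 (adjusted p = 0.0243). Rictor, the mTORC2 scaffold (chromosome 15, 6708379 to 6800401), had 100.7 and 105.6 CPM of total RNA in KO and 92.0 and 90.9 CPM in WT. Its footprints were scarce, at 8.20 and 8.17 CPM in KO and 4.73 and 7.53 CPM in WT, or 20 and 15 estimated reads in KO and 14 and 16 in WT. KO was above WT in both kinds of library, and neither difference passed (adjusted p = 0.56 in total RNA and 0.474 in footprints). The ratio of Rptor to Rictor footprints, which sets the mTORC1 scaffold against that of mTORC2, was 4.20 and 3.67 in KO and 9.99 and 5.93 in WT, and overlapped in total RNA.

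Of the inhibitors, Akt1s1 (chromosome 7, 44848991 to 44855421) had the fewest total RNA reads of the members, with 13.8 and 14.4 CPM in KO and 19.7 and 18.4 CPM in WT. Akt1s1 footprints, in contrast, overlapped, at 20.1 and 24.5 CPM in KO and 19.6 and 24.9 CPM in WT (log2 change 0.01, SE 0.245, adjusted p = 0.991). The total RNA groups did not overlap, but the log2 change of -0.40 did not pass (SE 0.349, adjusted p = 0.49). Deptor (chromosome 15, 55112317 to 55259271) stood higher in KO in both kinds of library. Deptor total RNA was 72.2 and 65.0 CPM in KO and 61.0 and 58.2 CPM in WT (log2 change 0.20, SE 0.197, adjusted p = 0.564). Deptor footprints were 27.1 and 18.6 CPM in KO and 13.9 and 15.5 CPM in WT, with a log2 change of 0.59 (SE 0.261, adjusted p = 0.116). Neither inhibitor passed in any comparison. Akt1s1 shares 89 exonic bases with Tbc1d17 on the opposite strand, whose total RNA was 16.9 and 17.1 CPM in KO and 8.37 and 9.19 CPM in WT, a difference opposite to that of Akt1s1.

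Rps6kb1, the S6 kinase gene (chromosome 11, 86498871 to 86544805, minus strand), was the member whose total RNA fell. It had 77.6 and 76.8 CPM in the KO libraries, against 106.8 and 128.7 CPM in the WT libraries. The KO libraries agreed within 1 CPM and the WT ones lay wider apart, with means of 77.2 ± 0.590 CPM in KO and 117.8 ± 15.5 CPM in WT (SD, n = 2 each), a level 1.53-fold lower in KO. Rps6kb1 total RNA fell by 0.60 on the log2 scale (SE 0.176, limma-trend adjusted p = 0.0317). The call was lost with the chromosome median removed, where the log2 change was -0.15 (adjusted p = 0.618), with no filter on low values (0.0713) and in a fit of all 8 libraries (0.0899). With each of the 4 libraries left out in turn the log2 change stayed between -0.73 and -0.46, and the adjusted p was 0.111 to 0.389. In such fits 1 genotype has a single library, which is assumed to vary like the other, and without a KO library only 1 or 0 genes of the whole table passed. Rps6kb1 footprints were 10.7 and 7.08 CPM in KO and 14.9 and 13.2 CPM in WT, also without overlap (log2 change -0.63, SE 0.303, adjusted p = 0.15). The efficiency change was -0.03 (SE 0.342, adjusted p = 0.986). Rnft1, which shares 155 exonic bases with Rps6kb1 on the opposite strand, had 40.7 and 38.1 CPM of total RNA in KO and 48.7 and 44.4 CPM in WT, and its part in the Rps6kb1 value was not tested.

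Larp1, the TOP-binding protein gene (chromosome 11, 58009064 to 58062034), had the highest total RNA level per kilobase of the members. Larp1 footprints were 91.1 and 80.9 CPM in the KO libraries, against 147.7 and 137.6 CPM in the WT libraries. Both KO libraries were well below both WT ones, with means of 86.0 ± 7.21 CPM in KO and 142.7 ± 7.11 CPM in WT (SD, n = 2 each), a footprint level 1.66-fold lower in KO. On the log2 scale Larp1 footprints fell by 0.73 (SE 0.174, limma-trend adjusted p = 0.00243), and the call was lost with the chromosome median removed, with a log2 change of -0.26 (adjusted p = 0.338), and without KO footprint library 2, with one of -0.64 (adjusted p = 0.0782). Larp1 total RNA was 185.9 and 185.7 CPM in KO and 276.1 and 229.9 CPM in WT, without overlap. The log2 change of -0.44 lay just outside the threshold (SE 0.143, adjusted p = 0.0513) and just inside it with a minimum mean of 5 CPM (adjusted p = 0.0426) or without Rn45s (adjusted p = 0.0383). The efficiency change was -0.29 (SE 0.230, adjusted p = 0.755). Of the 25-base words of the Larp1 transcript 14.4% occur in other transcripts, mostly in the processed pseudogene Gm16425, so how reads were divided between copies adds uncertainty. Set against the kinase, the ratio of Larp1 to Mtor footprints was 1.48 and 1.35 in KO and 2.79 and 2.84 in WT.

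The sequences upstream of the other 2 members that passed a test, Larp1 and Rps6kb1, are shown for comparison with that of Rheb, as the 100 bases before the RefSeq start (GRCm38.p6). They lie at chr11:58008964-58009063 on the plus strand and chr11:86544808-86544907 on the minus strand, and capitals mark GC boxes on either strand. GGGCGG was found within 250 bases of the start in 5 of 9 members (Mtor, Rictor, Rheb, Akt1s1 and Larp1) and in 32.7% of all starts. Within those 250 bases the Larp1 sequence was 86.8% G and C, Rheb 68% and Rps6kb1 52.8%, beside a median of 52.4% over all starts. The printed Rps6kb1 window holds none of the 6 motifs searched, which were the E-box, the GC box, the CCAAT box, the ETS motif (CCGGAAG), the cyclic AMP element (TGACGTCA) and the palindromic NRF1 motif.
Larp1: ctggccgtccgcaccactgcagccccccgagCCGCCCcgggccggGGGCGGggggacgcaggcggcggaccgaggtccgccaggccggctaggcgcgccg
Rps6kb1: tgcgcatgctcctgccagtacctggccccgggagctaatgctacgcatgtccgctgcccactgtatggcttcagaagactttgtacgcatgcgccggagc

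**Figure D2:**
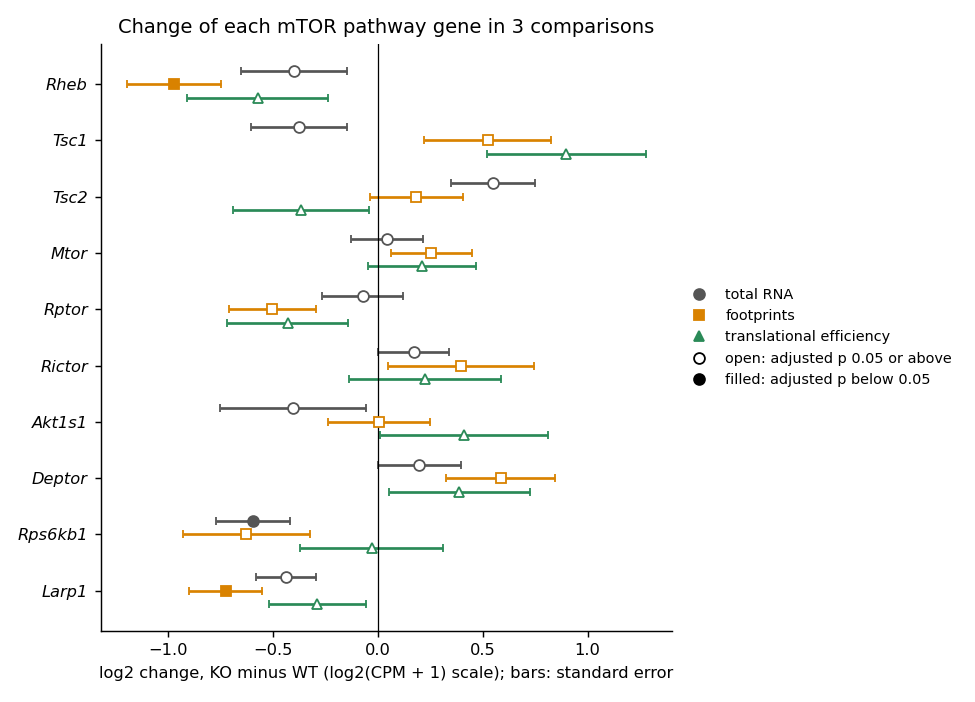
Log2 change, KO minus WT, of each member in total RNA (circles), footprints (squares) and translational efficiency (triangles), with bars for the standard error and filled symbols for an adjusted p below 0.05. Rheb and Larp1 footprints and Rps6kb1 total RNA are filled, and the Tsc1 symbols lie on opposite sides of 0.

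Counting separation alone, 8 of 10 members had KO and WT groups that did not overlap in total RNA, 3 higher in KO (Rictor, Tsc2 and Deptor) and 5 lower (Tsc1, Rheb, Akt1s1, Rps6kb1 and Larp1). In footprints 8 of 10 did not overlap, 4 higher in KO (Mtor, Rictor, Tsc1 and Deptor) and 4 lower (Rptor, Rheb, Rps6kb1 and Larp1). The same held for 56.1% of all genes in total RNA, 26.4% higher and 29.8% lower, and for 57.5% in footprints, 26.9% higher and 30.7% lower. Rictor and Deptor were higher and Rheb, Rps6kb1 and Larp1 lower in both kinds of library, and Tsc1 was the only member on opposite sides.

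Members differed far more from each other in their footprint to RNA ratio than between genotypes. Akt1s1 had the highest ratio of mean CPM, 1.58 in KO and 1.17 in WT, above 90.5% of 11364 genes in KO and 84.9% in WT. Rictor had the lowest, 0.0794 in KO and 0.0670 in WT, with only 2.33% of genes lower in KO and 1.62% in WT. Rps6kb1 was next, at 0.115 in KO and 0.119 in WT, above 4.82% of genes in KO and 4.36% in WT. Rptor had a ratio of 0.392 in KO and 0.527 in WT. Mtor lay near the middle of all genes, with 0.636 in KO and 0.548 in WT, above 56.2% of genes in KO and 50.5% in WT. Tsc1 had 0.318 in KO and 0.164 in WT, and Rheb 0.583 in KO and 0.891 in WT, the widest gaps between genotypes on the log2 scale. Footprints come from coding sequence while total RNA covers the whole transcript, and the coding share of the transcript was 28.5% for Rps6kb1, 14.4% for Deptor, 55.0% for Rictor, 54.3% for Akt1s1 and 89.3% for Mtor, so the share did not follow the order of the ratios.

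**Figure D3:**
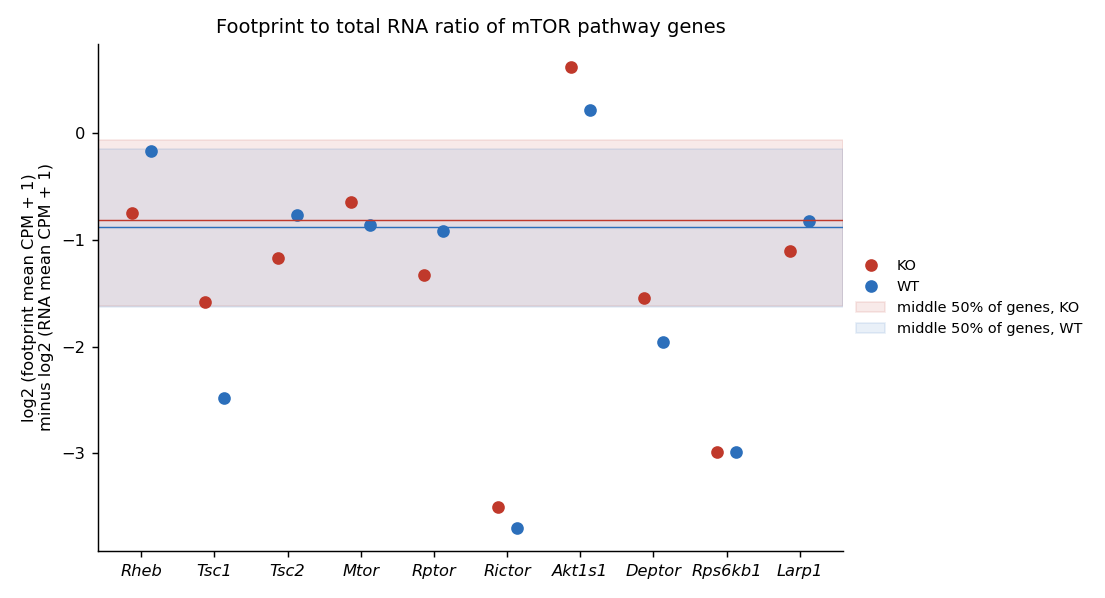
Log2 ratio of mean footprint to mean total RNA level (CPM + 1) of each member, KO in red left of WT in blue, with lines for the median of 11364 genes and bands for the middle 50% in each genotype. Rictor and Rps6kb1 lie far below the band and Akt1s1 above it in both genotypes.

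Per length, the members' order was led by Larp1 and Rheb. In total RNA, CPM per kilobase of transcript was 28.1 in KO and 38.2 in WT for Larp1, 19.1 in KO and 25.1 in WT for Rheb, and 18.2 in KO and 12.3 in WT for Tsc2. It was lowest for Tsc1, at 5.21 in KO and 6.81 in WT. In footprints, CPM per kilobase of coding sequence was 35.9 ± 0.702 in KO and 72.4 ± 5.83 in WT for Rheb, 26.7 ± 2.24 in KO and 44.4 ± 2.21 in WT for Larp1 (SD, n = 2 each). Akt1s1 followed, at 22.7 ± 3.18 in KO and 22.6 ± 3.84 in WT. In KO the libraries of Larp1, at 28.3 and 25.1, lay above those of Akt1s1, at 20.4 and 24.9, without overlap. The gap between Larp1 and Akt1s1 was wider in WT. Deptor had 18.6 ± 4.87 in KO and 12 ± 0.927 in WT. Tsc2, Rptor and Mtor lay close together in KO, at 8.24 ± 1.29, 8.04 ± 0.793 and 7.94 ± 0.149. In WT they were 7.39 ± 2.43, 11.5 ± 0.453 and 6.64 ± 0.422, with Rptor well above Mtor. Rictor was lowest, at 1.60 in KO and 1.2 in WT.

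Rps6kb1, Larp1 and Rptor lie on chromosome 11. Chromosomes 11, 6 and 8 had lower medians in KO than the others: the median log2 change of tested genes was -0.44 on chromosome 11 in total RNA and -0.46 in footprints, while chromosomes other than these 3 had medians of -0.10 to 0.10 in total RNA and -0.06 to 0.06 in footprints. On chromosome 11, 20.3% of 1106 genes fell in total RNA and 28.7% of 993 in footprints. Against the median of the other genes of chromosome 11, the difference of Rps6kb1 was -0.16 in total RNA, with 38.8% of those genes lower still. That of Larp1 was 0.00 in total RNA and -0.27 in footprints, and that of Rptor 0.37 in total RNA and -0.05 in footprints. The 25 tested genes on each side of Larp1 had a median change of -0.61 in total RNA and -0.62 in footprints, and those around Rps6kb1 of -0.57 and -0.44. With the chromosome median removed, neither Rps6kb1 total RNA nor Larp1 footprints passed, as given above. Rheb, on chromosome 5 with a footprint median of -0.01, kept its call there and in all 8 settings that left no library out (adjusted p = 0.000373 to 0.00522). Only 3.23% of the other chromosome 5 genes had a lower footprint change, and the 50 nearest tested genes had a median change near 0.

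**Figure D4:**
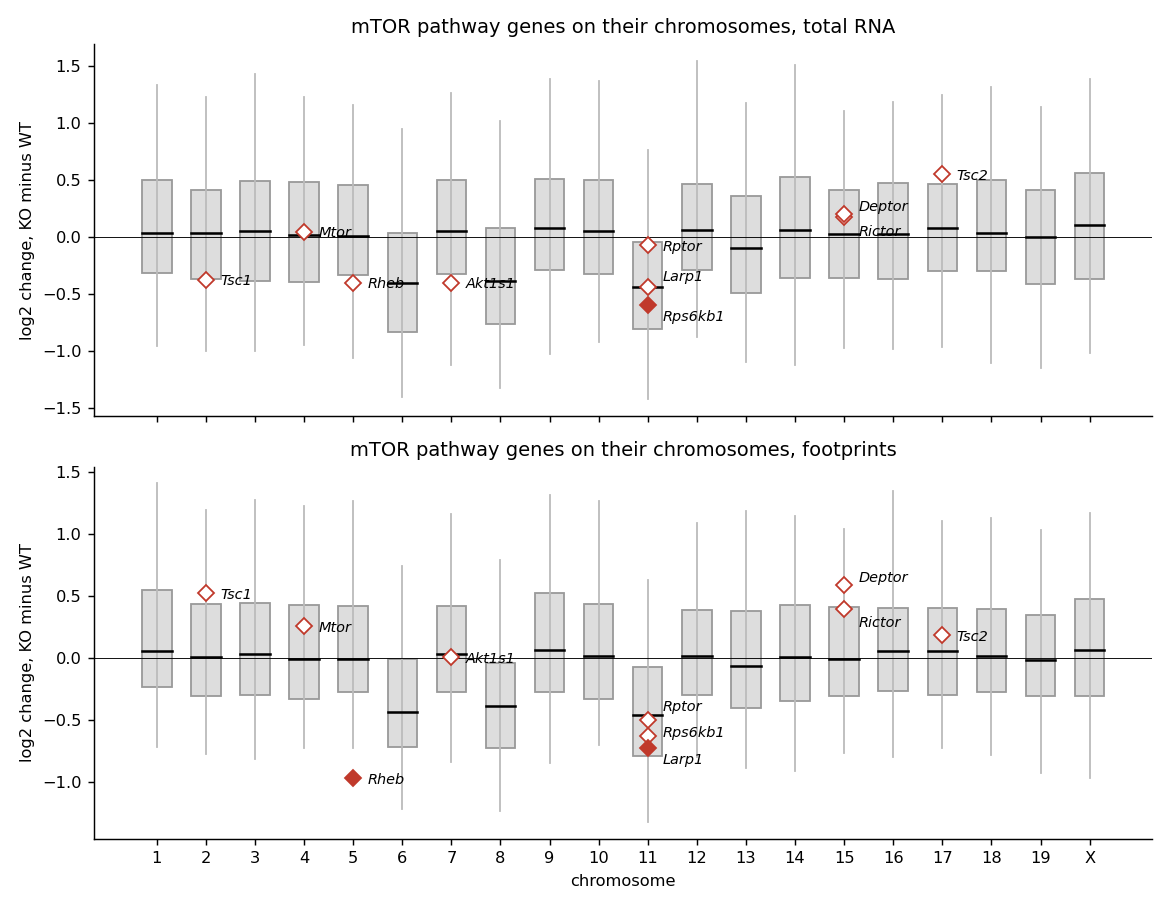
Log2 change, KO minus WT, on each chromosome in total RNA (top) and footprints (bottom), with boxes for the middle 50% of genes, black lines for the median and grey lines from the 5th to the 95th percentile. Diamonds are the members, filled where the adjusted p is below 0.05, and chromosomes 6, 8 and 11 sit below 0.

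The wider pathway was described through 6 lists, without a set test. Of the 40 list genes that passed in total RNA, none passed in every fit with 1 library left out and 24 passed in no such fit. Without KO library 1 or 2 only 1 and 0 genes of the whole table passed, while 650 and 447 passed without WT library 1 or 2. Of the 22 list genes that passed in footprints, Rps15a, Rpl14 and Rps29 passed whichever library was left out, and Sec13 passed in no such fit. Among 9 further complex subunits and assembly factors, none passed in any comparison, with medians of -0.10 in total RNA and -0.43 in footprints. Tbc1d7, the third TSC subunit, had 0 and 4.59 CPM of total RNA in KO and 6.89 and 7.15 CPM in WT (adjusted p = 0.138), and footprints of 2.46 and 0.545 CPM in KO and 4.73 and 4.24 CPM in WT (adjusted p = 0.0562). Mlst8, a subunit of both mTOR complexes, had 27.7 and 32.8 CPM of total RNA in KO and 22.6 and 23.5 CPM in WT (adjusted p = 0.43). Neither passed the test, and Tbc1d7 rests on a handful of reads per library.

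Amino acid supply reaches mTORC1 through the Rag GTPases, the Ragulator and the GATOR complexes, and here 4 of 29 genes fell in total RNA (13.8%, beside 7.03% of all genes). The GATOR2 genes Wdr59 (log2 change -1.33), Mios (-1.15) and Sec13 (-0.86), the last also a coat and nuclear pore protein, fell, as did Fnip1 (-0.84), the folliculin partner. All 4 that fell lie on chromosomes 6, 8 and 11, where 4 of 8 listed genes fell, against 0 of 21 elsewhere, and 20.5% of all tested genes on these chromosomes fell against 4.01% elsewhere. In footprints 1 rose (3.45%, beside 10.7% of all genes) and 5 fell (17.2%, beside 8.28%). Sesn2, a leucine sensor that inhibits GATOR2, had 80.7 and 68.6 CPM in KO and 43.2 and 38.6 CPM in WT and rose by 0.85 (adjusted p = 0.00156), while Flcn (-0.84), Wdr24 (-1.07), Sec13 (-0.53), Lamtor5 (-0.84) and Nprl3 (-0.91) fell.

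Growth factor and energy inputs moved in both directions. In total RNA the insulin receptor substrate Irs2 rose (log2 change 1.78, adjusted p = 0.0165), and the median of the 23 listed genes was 0.09. Irs2 lies on chromosome 8 and stood at 30.0 and 13.8 CPM of total RNA in KO and 4.43 and 6.13 CPM in WT. In footprints 3 of 21 rose (14.3%, beside 10.7% of all genes), Irs2 (1.18), the receptor Igf1r (0.83) and the AMPK subunit Prkag1 (0.91), and Akt1, which phosphorylates TSC2 and PRAS40, fell (-1.15, adjusted p = 0.00545). Akt1 footprints were 6.34 and 7.08 CPM in KO and 16.7 and 15.5 CPM in WT.

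Of 21 translation effectors, 2 fell in total RNA (9.52%, beside 7.03% of all genes) and 1 rose in footprints (4.76%, beside 10.7%). Eif4a1, the helicase of the cap-binding complex, had 1279 and 1367 CPM of total RNA in KO and 2335 and 2225 CPM in WT and fell by 0.79 (adjusted p = 7.52e-05). It lies on chromosome 11, and its footprints did not pass (log2 change -0.37, adjusted p = 0.156). Eef2, the elongation factor, fell by 0.34 in total RNA (adjusted p = 0.0419), and footprints of Larp4, a poly(A) tail binding protein, rose by 0.53 (adjusted p = 0.0256). Eif4ebp1, the mTORC1 target that blocks eIF4E, had footprints of 262.9 and 228.8 CPM in KO and 374.3 and 301.6 CPM in WT, without overlap (log2 change -0.45, adjusted p = 0.0511). Among 13 other outputs, Lpin1, a regulator of lipid synthesis, rose in total RNA (1.51, adjusted p = 0.000477) and in footprints (1.05, adjusted p = 0.005). The sterol regulator Srebf2 (0.62) and the autophagy kinase Ulk1 (0.63) also rose in total RNA, while Mitf (-0.85) and Srebf1 (-0.92) fell. Thus 3 of 13 rose (23.1%, beside 6.57% of all genes) and 2 fell (15.4%, beside 7.03%). Mitf lies on chromosome 6 and Srebf1 on chromosome 11. On chromosomes 6, 8 and 11, 2 of 4 listed genes fell, against 0 of 9 elsewhere. The shares over all genes were 20.5% and 4.01%. In footprints Atg13 (0.74) rose and Srebf1 (-0.63) fell. With Lpin1, 15.4% rose there and 7.69% fell, beside 10.7% and 8.28% of all genes.

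**Figure D5:**
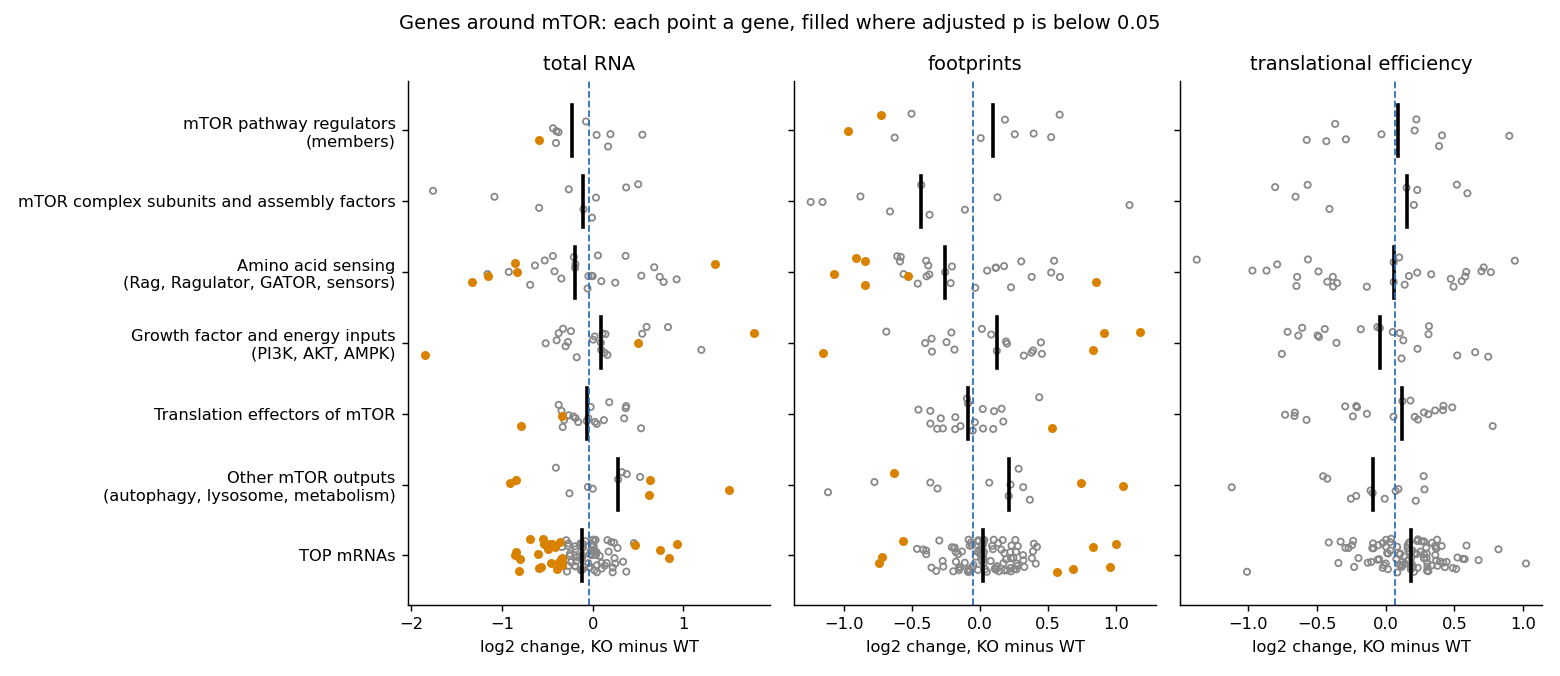
Log2 change, KO minus WT, of every tested gene of the members and the 6 pathway lists in total RNA, footprints and translational efficiency, filled where the adjusted p is below 0.05. Black bars are list medians and the dashed line is the median of all tested genes, and no gene of these lists is filled for translational efficiency.

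TOP mRNAs are the transcripts that LARP1 binds, and the starts of 4 of them are shown because footprints of 3 of them changed and Rps6 encodes the S6 kinase substrate. Each runs from 10 bases before to 20 bases from the RefSeq start (GRCm38.p6), with capitals for the tract, a C at the start and the run of C and T that follows. The positions are chr4:86857348-86857377 on the minus strand for Rps6, chr9:120571507-120571536 on the plus strand for Rpl14, chr7:118116128-118116157 on the minus strand for Rps15a and chr11:114668570-114668599 on the plus strand for Rpl38.
Rps6: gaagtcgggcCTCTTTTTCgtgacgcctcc
Rpl14: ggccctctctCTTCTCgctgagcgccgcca
Rps15a: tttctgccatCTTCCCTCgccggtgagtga
Rpl38: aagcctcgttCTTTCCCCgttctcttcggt

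A start of this form, C followed by at least 4 of C or T, was found in 17 of the 69 listed TOP genes with a RefSeq start (24.6%), in 3.01% of 27025 genes in all and in 0 of the 9 members with a start. The annotated start need not be the base where transcription begins, so a missing tract says only that these letters are not at the annotated base. In total RNA 4 of 97 TOP genes rose (4.12%) and 22 fell (22.7%), beside 6.57% and 7.03% of all genes, with medians of -0.11 for the list and -0.04 for all genes. Those that fell included Npm1 (log2 change -0.80), Rps27a (-0.85) and Rpl27 (-0.85), all of chromosome 11, while Pabpc1, which encodes a poly(A) tail binding protein, rose by 0.93 (adjusted p = 0.000149). Of the 13 TOP genes on chromosomes 6, 8 and 11, 11 fell, or 84.6%, beside 20.5% of all tested genes there. Of the 84 elsewhere 11 fell, or 13.1%, beside 4.01% of all tested genes elsewhere. The median of these 84 was -0.06, against 0.03 for all tested genes elsewhere. In footprints 5 rose (5.15%) and 3 fell (3.09%), beside 10.7% and 8.28% of all genes, with medians of 0.02 for the list and -0.05 for all genes. Rps15a footprints were 174.3 and 140.2 CPM in KO and 63.6 and 94.4 CPM in WT and rose by 1.0 (adjusted p = 0.000144), and Rpl14 footprints were 401.8 and 345.6 CPM in KO and 166.5 and 220.8 CPM in WT and rose by 0.95 (adjusted p = 7.13e-05). Rpl38 footprints were 645.2 and 567.1 CPM in KO and 1050 and 971.8 CPM in WT and fell by 0.74 (adjusted p = 0.00122). Rps6 itself did not pass in total RNA, at 1738 and 1905 CPM in KO and 2298 and 2080 CPM in WT (adjusted p = 0.103).

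No TOP mRNA passed for translational efficiency with limma-trend, while 10 of 97 had an unadjusted p below 0.05 and the all-gene share was 8.91%. The median efficiency change was 0.18 for the list and 0.07 for all genes, and 67 of 97 were above the median of all genes. The 17 with the tract at the annotated start had a median of 0.09, the other 80 of 0.19, and the 250 other tested genes with such a start of 0.08. Pabpc1 had the smallest p of the list, with an efficiency change of -1.01 (SE 0.220, adjusted p = 0.112).

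Since METTL6 acts on serine tRNA, the serine codons of the members were counted in the longest coding transcript. Tsc1 had 11.9% serine codons, above 93.5% of 10926 genes, and Deptor, Rictor and Rheb had 10.5%, 10.5% and 10.3%, beside a median of 7.71%. Akt1s1 and Rps6kb1 had the lowest shares, 5.79% and 5.90%. Deptor used AGC for 5.87% of its codons, above 99.7% of genes. The efficiency change was 0.90 for Tsc1, 0.39 for Deptor, 0.22 for Rictor and -0.57 for Rheb, so the 4 members richest in serine codons lay on both sides of 0.

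Genes with the most similar levels over the 8 libraries were named for each member by Pearson r among 8437 genes, a likeness that reflects mostly the gap between the kinds of library. Rheb was most like Klhdc2 (r = 0.973) and Magoh (0.967), Larp1 most like Tada2a (0.994), also of chromosome 11, and Gcc1 (0.994), and Rps6kb1 most like Cstf2 and Kpna1 (both 0.999). Mtor was closest to Tbl2 and Fastkd2, Rptor to Iqsec1 and Uhrf1bp1, Rictor to Rif1 and Nbeal1, and Tsc1 to Abcd3 and Rnf145. Tsc2 was closest to Ndor1 and Phactr4, Akt1s1 to Ddrgk1, and Deptor to Tmem164 and Extl3.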

How the data were processed

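Total RNA and ribosome footprints of KO and WT J1 embryonic stem cells were measured with 2 libraries per group, grouped by their titles and genotype labels. The deposited values are CPM per gene and library. Per the submitters' processing notes, the authors used CASAVA 1.8.2, Bowtie2 with the mm10 build, and RSEM. Versions of the last 2, their settings and any use of strand are not stated there. Titles of WT total RNA end in a suffix absent from KO titles, and whether those libraries were made at another time is not stated. Estimated read depth came from the smallest step between the authors' CPM values. Within 0.01 read, 89.2% to 90.5% of values above 0 in total RNA and 65.3% to 72.8% in footprints were whole reads, so counts were not recovered and no count test was run.

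Values were taken as log2(CPM + 1), genes averaging 1 CPM or more were kept (in each kind of library for translational efficiency), and limma-trend (limma 3.58.1, R 4.3.3) was fitted over all kept genes, calling genes at a Benjamini-Hochberg adjusted p below 0.05. Log2 changes are KO minus WT on that scale, which understates changes of low genes, and folds are ratios of mean CPM. Translational efficiency was the genotype by library kind interaction over 8 libraries. With 2 libraries against 2, an exact test of a single gene cannot reach the threshold, and limma-trend borrows spread across genes. Alternatives changed the filter, pseudocount, scaling, the libraries in the fit, the replicate block, the library left out, and the chromosome median.

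On simulated data 17% of planted 2-fold and 83% of planted 4-fold changes were recovered in total RNA (13156 genes). The shares were 42% and 91% in footprints (11654 genes), and 16% and 73% for translational efficiency (11261 genes). These shares hold for the simulated spread and number of planted changes, and whether those match these libraries was not tested. They are therefore not the power of the tests reported here. Coordinates and coding sequences are from GENCODE vM21 (GRCm38, the assembly of mm10), taking the transcript with the longest coding sequence, and starts, promoters and TOP tracts from RefSeq GRCm38.p6. The members, lists and tests were chosen with earlier results of these data known. The named genes are Mettl6, the members, up to 4 genes per list and comparison with the smallest p, and the 2 genes most like each member. Others that passed are named after their values were seen, as are the split by chromosomes 6, 8 and 11 and the 4 printed TOP starts. Some genes that the rule takes are not reported here.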

Additional observations from a re-analysis of the deposited data

How the results depend on the processing

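Of the values of the members under the alternatives, 363 kept direction and side of the threshold, 10 lost the threshold, 3 gained it and 14 changed sign. Of the other named genes' values these counts were 820, 120, 19 and 5.

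The number of genes that passed in total RNA was 937 with no filter, against 1799, and 0 to 650 with 1 library left out. Leaving out KO library 1 gave 1 and KO library 2 gave 0, with 3544 and 3685 at an unadjusted p below 0.05, against 3689 with all libraries, so these counts say little of single calls. Members that passed in total RNA numbered 1, against 0 with no filter, 0 in a fit of 8 libraries, 0 with the chromosome median removed, 0 to 0 with 1 library left out, and 2 with a minimum of 5 CPM or Rn45s left out. In footprints 2205 genes passed, and 1015 to 1524 with 1 library left out, and the 2 members became 3 without Rn45s (Rptor added), 1 with the chromosome median removed and 1 to 2 with 1 library left out. For translational efficiency 7 genes passed, against 3 with no filter, 4 at a minimum of 5 CPM, 2 at a pseudocount of 0.1, 12 without Rn45s and 2 to 48 with 1 library left out, and no member (0 to 0).

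The split of calls moved with scaling. Footprints had 1242 higher and 963 lower, against 1156 and 1462 without Rn45s and 1267 and 459 with the chromosome median removed. Total RNA had 869 and 930, against 888 and 576, and translational efficiency 5 and 2, against 5 and 5 with median scaling and 5 and 7 without Rn45s.

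Signs changed with the chromosome median removed for total RNA of Rptor (0.37) and Larp1 (0.0052) and for footprints of Akt1s1 (-0.026) and Eif4a1 (0.10), and without Rn45s for footprints of Akt1s1 (-0.077) and Mettl6 (-0.053). With 1 library left out the sign changed within ranges of -0.029 to 0.12 for Mtor and -0.29 to 0.14 for Rptor in total RNA, of -0.15 to 0.52 for Tsc2, -0.16 to 0.17 for Akt1s1 and -0.38 to 0.41 for Mettl6 in footprints, and of -0.064 to 0.51 for Rictor, -0.29 to 0.23 for Rps6kb1 and -1.47 to 0.16 for Mapkap1 in efficiency. The cause was not tested.

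Whether replicate numbers pair libraries is not stated in the sources used here. Deviations of same-numbered KO and WT libraries correlated at -0.00184 in total RNA and -0.0275 in footprints over 11364 genes. Those of same-numbered total RNA and footprint libraries correlated at 0.0126 in KO and 0.0571 in WT. Such low correlations cannot show that libraries were not paired. A fit with the replicate block gave 2056, 1833 and 9 genes in total RNA, footprints and efficiency, with 1, 2 and 0 members as before. Rictor, Tsc1, Rps6kb1, Deptor and Akt1s1 rest on 13 to 66 footprint reads per library and Rheb on 49 and 35.9 in KO, which limits what their footprints can show.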
